A study of Mus musculus with 8 samples.

Results

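The 9 genes described here carry the insulin signal from the cell surface to glucose uptake. They are Insr, Irs1, Irs2, Pik3r1, Akt1, Akt2, Cbl, Slc2a4 and Slc2a1, and every probe set that the platform annotation pairs with one of them was taken, whatever its values. These 9 of the 12393 genes named on the array were read by 18 of its 22690 probe sets. Of these, 17 entered the tests, among 15285 probe sets that are paired with 1 gene and lie above the lowest 25% by mean intensity. The probe set left out was the dimmer of the 2 for Cbl (1450457_at), with values between 2.9 and 33.5. No probe set shared between genes was among the members.

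The study asked, per its title, how agonists of PPARγ, the nuclear receptor that drives fat cell formation, bring about a change from white to brown fat through PRDM16, a transcriptional regulator of brown fat genes. SV (stromal-vascular) cells were isolated from inguinal white fat, the subcutaneous depot of the groin, of male C57BL/6J mice and differentiated into adipocytes. The cells expressed either sh-scr, the control hairpin, or sh-PRDM16, a hairpin against PRDM16, and each kind was cultured without an agent or with 1 µM rosiglitazone, a PPARγ agonist of the thiazolidinedione class used as an insulin sensitizer. Each of the 4 groups had 2 arrays of total RNA, and in what follows treated means cultured with rosiglitazone. The labels name the 2 arrays biological replicates but tie them to no culture or animal, so the p-values speak of the spread between these arrays and that spread may be technical. The labels give no ages, no length of treatment and no means of delivering the hairpins. The targeted gene, Prdm16, was not analysed here, because the annotation used pairs it with no probe set, and so the hairpin groups could not be checked beyond their labels.

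Insulin binds its receptor tyrosine kinase, encoded by Insr, which phosphorylates the docking proteins encoded by Irs1 and Irs2. These recruit phosphoinositide 3-kinase through its regulatory subunit p85α, the main product of Pik3r1, and the lipid it makes brings the AKT kinases to the membrane. In fat and muscle cells AKT2 is the isoform chiefly tied to glucose uptake, because it releases vesicles holding GLUT4, the insulin-responsive transporter encoded by Slc2a4, to the cell surface. GLUT1, encoded by Slc2a1, sits at the surface without insulin and serves basal uptake, while CBL is a ubiquitin ligase that the insulin receptor phosphorylates in adipocytes. All of these steps are regulated largely by phosphorylation and vesicle movement, which RNA levels do not show.

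The sequences just upstream of Irs1, Irs2 and Pik3r1 are given because the first and second changed in opposite directions with rosiglitazone and the levels of Irs1 and Pik3r1 ran in the same order over the groups. Each window holds the 250 bases before a RefSeq start site (mouse GRCm38.p6, minus strand), written 5′ to 3′ in the direction of transcription, with capitals marking an E-box (CACGTG) or a GC box (GGGCGG).
Irs1, chr1:82291440-82291689: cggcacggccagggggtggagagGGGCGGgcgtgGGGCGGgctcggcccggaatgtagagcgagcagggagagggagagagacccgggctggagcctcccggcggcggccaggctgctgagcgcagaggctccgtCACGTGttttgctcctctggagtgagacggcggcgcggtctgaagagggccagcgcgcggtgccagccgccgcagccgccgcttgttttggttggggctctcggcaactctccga
Irs2, chr8:11008930-11009179: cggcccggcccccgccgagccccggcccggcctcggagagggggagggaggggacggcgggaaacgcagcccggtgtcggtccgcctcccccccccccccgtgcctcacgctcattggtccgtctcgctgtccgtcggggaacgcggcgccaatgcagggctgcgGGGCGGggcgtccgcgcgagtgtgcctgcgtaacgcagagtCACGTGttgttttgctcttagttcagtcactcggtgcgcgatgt
Pik3r1, chr13:101768218-101768467: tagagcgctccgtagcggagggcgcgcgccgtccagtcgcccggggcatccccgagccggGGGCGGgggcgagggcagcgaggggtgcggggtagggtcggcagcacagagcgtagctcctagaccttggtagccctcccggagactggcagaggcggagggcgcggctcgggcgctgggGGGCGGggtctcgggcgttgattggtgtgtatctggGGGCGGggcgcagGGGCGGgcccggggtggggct
The G and C content of these windows was 72.4% for Irs1, 72.8% for Irs2 and 76.4% for Pik3r1. The windows of Irs1 and Irs2 each held 1 E-box, at 115 and 44 bases before the start, against 6.04% of the 32536 windows of this length in the table. The GC box occurred at 227 and 216 bases before the start of Irs1, at 85 before Irs2 and at 190, 70, 34 and 21 before Pik3r1, and 33% of all windows held it. The direct repeat bound by PPARγ with its partner RXR (AGGTCANAGGTCA), its half-site (AGGTCA), a FOXO site (GTAAACA) and a sterol response element (TCACNCCAC) were searched on both strands and were not in these 3 windows. They occur in 0.0338%, 14%, 3.17% and 1.04% of all windows, and every direct repeat also holds the half-site. The table has a promoter for 7 of the 9 genes, and Insr and Slc2a4 have no entry. For Pik3r1 it also holds the window of another start site, chr13:101692631-101692880. That window, not printed here, has a G and C content of 42.4% and none of the motifs searched. In GRCm38.p6 the genes themselves lie on chromosome 8 (Insr, 3150922 to 3279649; Irs2, 10984681 to 11008929), chromosome 1 (Irs1, 82233105 to 82291439), chromosome 13 (Pik3r1, 101680761 to 101768217), chromosome 12 (Akt1, 112653821 to 112674884), chromosome 7 (Akt2, 27591552 to 27640826), chromosome 9 (Cbl, 44142976 to 44234259), chromosome 11 (Slc2a4, 69942286 to 69948216) and chromosome 4 (Slc2a1, 119108745 to 119137330).

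The cells carried high adipocyte marker signal in every group. The summed intensity of the 6 measured adipocyte markers, among them Adipoq and Fabp4, was 68929 to 69217 in untreated sh-scr cells, 68478 to 72837 in treated sh-scr cells, 44617 to 51151 in untreated sh-PRDM16 cells and 62944 to 67595 in treated sh-PRDM16 cells. The sum of the 7 macrophage markers was 4622 to 5034, 2939 to 2986, 940 to 1044 and 808 to 828 in the same order. Most of it was Lyz2 in sh-scr cells and Csf1r in sh-PRDM16 cells, and Itgam was under 16 on every array. Preadipocyte markers (6 of 7 measured) summed to 13748 to 14343, 7535 to 8538, 12285 to 14431 and 9909 to 10731. In these bulk samples, fewer cells of a type and less RNA per cell cannot be told apart. The array medians ran from 100.7 to 135.65 and replicates correlated at r = 0.99, with 22.0 to 25.2% of values below 16. Changes below are in log2(intensity + 16), which understates the change of dim probe sets, and the test throughout is limma with Benjamini-Hochberg adjustment over all probe sets tested and a threshold of 0.05. Groups that do not overlap are named below as description only. Of all probe sets tested, 74.1% did not overlap with rosiglitazone in sh-scr cells and 48.5% in sh-PRDM16 cells. Between the hairpins, 55.4% did not overlap without rosiglitazone and 62.1% with it.

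Rosiglitazone in sh-scr cells raised Irs2 and lowered Irs1, on the deposited scale and on median-centred arrays. It lowered 2 of the 3 Pik3r1 probe sets on the deposited scale and 1 of them on median-centred arrays. Those Pik3r1 calls were lost when an sh-scr array was left out. On the deposited scale, though not on median-centred arrays, it lowered Akt1 and Cbl. Of the 17 member probe sets tested, 1 rose, where the background of rises over all probe sets was 4%, and 6 fell, where the background of falls was 25.4%. The direction of many small changes rests on the scale, because the median change of all probe sets was −0.30 in this comparison. With every array centred on its median, the whole array split into 1927 rises and 1257 falls rather than 612 and 3879, and the members into 3 rises, beside 12.6% of all, and 2 falls, beside 8.22%. In sh-PRDM16 cells 2 member probe sets rose with rosiglitazone, from Irs2 and Akt2, against a background of 7.5%, and 0 fell, against a background of 2.26%. There the median of all probe sets was 0.00, and median-centred arrays gave 3 rises (12.3% of all) and 2 falls (7.25% of all) among the members, with 1881 rises and 1108 falls in place of 1147 and 346 over the array.

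The sh-PRDM16 hairpin went with lower Irs1, Pik3r1, Akt2 and Slc2a4. Without rosiglitazone, 8 of the 17 member probe sets were lower in sh-PRDM16 than in sh-scr cells, against a background of 10.9%, and 0 were higher, against a background of 1.25%. The 8 come from only 4 genes, since Pik3r1 gave 3 of them and Akt2 and Slc2a4 gave 2 each, and probe sets of a gene are not independent. Under rosiglitazone 6 were lower, against a background of 3.42%, and 1 was higher, against a background of 6.93%. The median change of all probe sets was −0.16 without and 0.15 with the agent. Without the agent, median-centred arrays gave 8 lower member probe sets (9.29% of all) and 4 higher (7.05% of all). With it they gave 8 lower (9.62% of all) and 2 higher (9.75% of all). Over the array, centring turned 191 rises and 1672 falls into 1078 and 1420 without the agent, and 1060 and 522 into 1490 and 1471 with it. The sh-scr comparison with rosiglitazone and the hairpin comparison without it share the untreated sh-scr arrays, so the falls of Irs1 and Pik3r1 in both are not separate evidence.

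**Figure D1:**
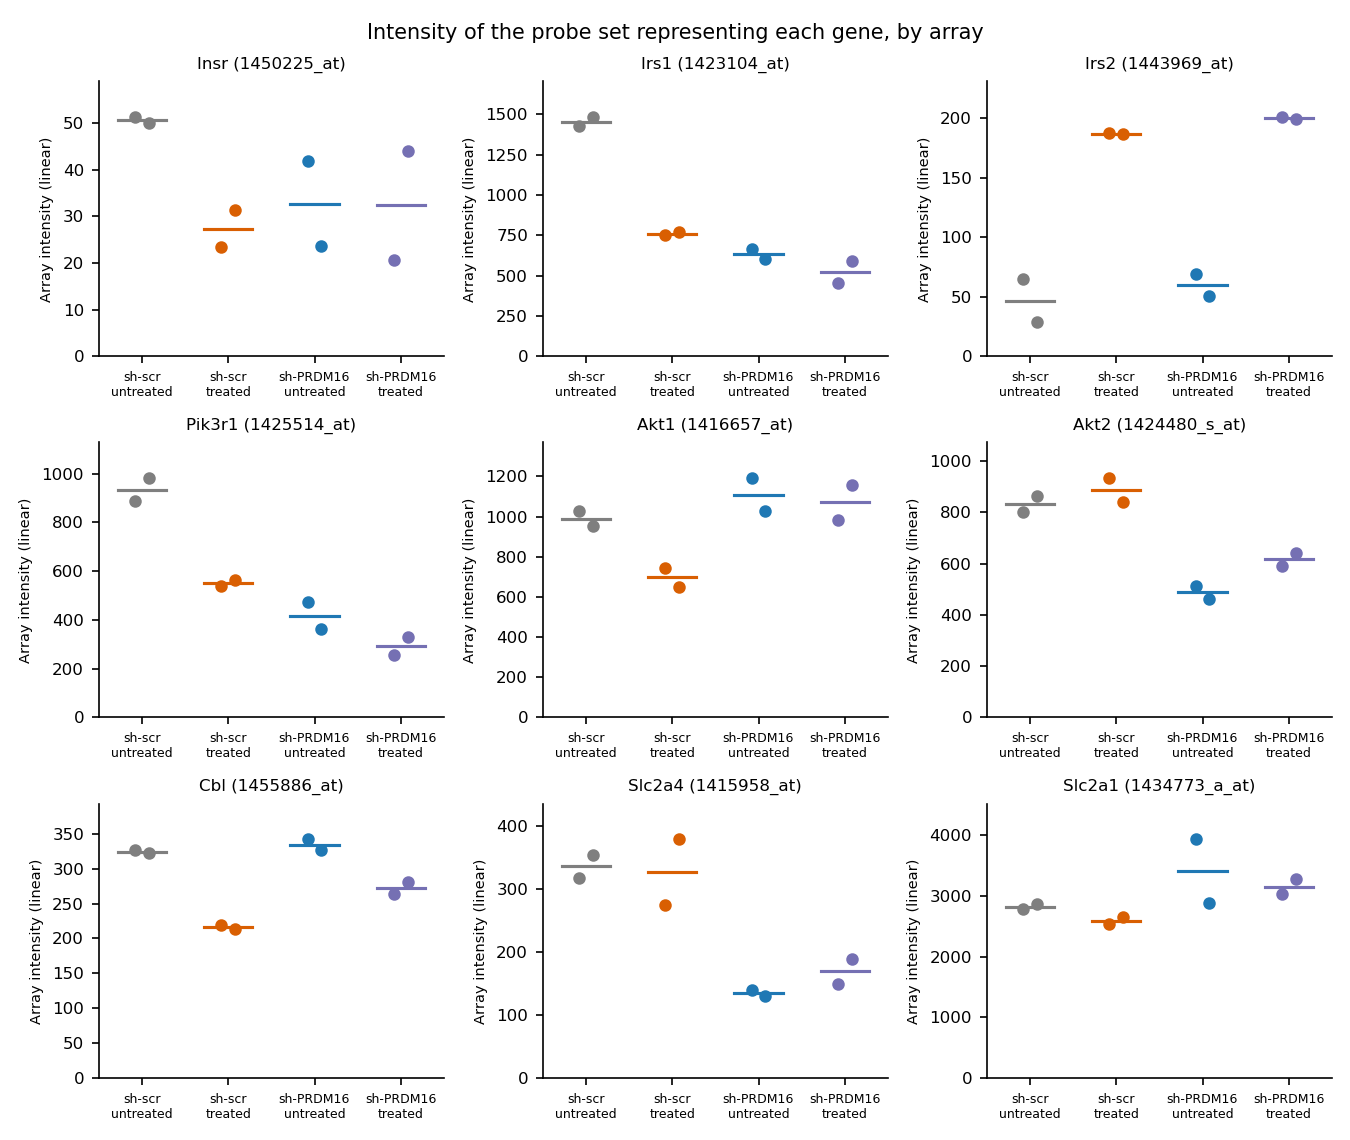
Linear array intensity of the probe set representing each of the 9 genes (that with the highest mean over the arrays) in the 4 groups, 1 dot per array. Irs2 lies between 29 and 68.8 on the 4 untreated arrays and between 186.6 and 200.8 on the 4 treated arrays, while Irs1 falls stepwise from 1429.9 and 1481.6 in untreated sh-scr cells to 451.5 and 589 in treated sh-PRDM16 cells.

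Insr, the receptor itself, was dim, and its pair of probe sets did not move together. The intensities of 1450225_at were 51.2 and 49.9 in untreated sh-scr cells, 23.4 and 31.3 in treated sh-scr cells, 41.8 and 23.6 in untreated sh-PRDM16 cells and 20.7 and 44 in treated sh-PRDM16 cells. Both untreated sh-scr arrays lay above all others, and the other 3 groups overlapped. The change with rosiglitazone in sh-scr cells was −0.62 (SE 0.25, adjusted p = 0.0903) and did not pass the test. It passed with only the 4 arrays compared (adjusted p = 0.0307) and was −0.32 on median-centred arrays (adjusted p = 0.367). With 1421380_at the intensities were 35.4 and 24.7, 17.4 and 27.2, 15 and 22, and 37.5 and 32.1 in the same group order, so treated sh-PRDM16 cells had the highest mean there. The correlation of the 2 probe sets over the 8 arrays was 0.10, so these arrays give no settled pattern for the receptor.

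Irs1, which encodes one of the receptor's main docking proteins, fell with rosiglitazone in sh-scr cells and was lower with the sh-PRDM16 hairpin. Its intensities (1423104_at) were 1429.9 and 1481.6 in untreated sh-scr cells, 753 and 768.4 in treated sh-scr cells, 666.2 and 601.5 in untreated sh-PRDM16 cells and 451.5 and 589 in treated sh-PRDM16 cells. The 4 groups did not overlap and stood in that order. Rosiglitazone lowered the mean 1.91-fold in sh-scr cells (log2 change −0.92, SE 0.15, adjusted p = 0.00673), and the hairpin went with a 2.30-fold lower mean without the agent (−1.18, SE 0.15, adjusted p = 0.00218). Both calls held on median-centred arrays (−0.62 and −0.99) and without any 1 array. In sh-PRDM16 cells the change with rosiglitazone was −0.29 (adjusted p = 0.304), and between the treated groups it was −0.55 (SE 0.15, adjusted p = 0.0571), which missed the threshold on the deposited scale and passed it on median-centred arrays (−0.67, adjusted p = 0.0101).

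Irs2, the other main docking protein, moved the opposite way and did so with both hairpins. Its intensities (1443969_at) were 64.8 and 29 in untreated sh-scr cells, 187.7 and 186.6 in treated sh-scr cells, 68.8 and 50.3 in untreated sh-PRDM16 cells and 200.8 and 199.6 in treated sh-PRDM16 cells. All 4 treated arrays lay above all 4 untreated arrays, and the untreated groups overlapped. The mean was 3.99-fold higher with rosiglitazone in sh-scr cells (log2 change 1.75, SE 0.25, adjusted p = 0.00364) and 3.36-fold higher in sh-PRDM16 cells (1.53, SE 0.25, adjusted p = 0.00622). The rise in sh-PRDM16 cells missed the threshold without the second untreated sh-PRDM16 array (1.35, adjusted p = 0.0642), and the rise in sh-scr cells held without any 1 array. The hairpin comparisons gave 0.31 (adjusted p = 0.466) without and 0.09 (adjusted p = 0.835) with the agent. The untreated sh-scr mean of 46.9 carries an SD of 25.3 (n = 2), so the size of the fold is less certain than its direction.

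Pik3r1, which encodes the regulatory subunit that docks on the IRS proteins, followed the same order of groups as Irs1 on all 3 of its probe sets. The intensities of 1425514_at were 886.1 and 980.3 in untreated sh-scr cells, 540.1 and 562 in treated sh-scr cells, 471.5 and 362.6 in untreated sh-PRDM16 cells and 255.5 and 330.9 in treated sh-PRDM16 cells, with no overlap between neighbouring groups. Those of 1425515_at were 686.1 and 810.4, 491.5 and 439.3, 335.5 and 273.3, and 193.8 and 248.3. Those of 1451737_at were 347.9 and 355.8, 330.8 and 240.3, 164.8 and 187.7, and 136.5 and 135.7. The second and the third correlated with the first at 0.99 and 0.90 over the 8 arrays.

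With the sh-PRDM16 hairpin, Pik3r1 was 2.24-fold lower without rosiglitazone by the brightest probe set (log2 change −1.14, SE 0.18, adjusted p = 0.00467) and −1.26 and −0.94 by the others (adjusted p = 0.0029 and 0.0086). Under rosiglitazone the 3 changes were −0.89, −1.03 and −0.97 (adjusted p = 0.0191, 0.00992 and 0.0104), a 1.88-fold lower mean for the brightest. Every one of the 3 missed the threshold without the first treated sh-PRDM16 array (adjusted p = 0.0955, 0.0609 and 0.0521). The brightest also missed it without the first or second treated sh-scr array (0.0541 and 0.091), the dimmest without the second treated sh-PRDM16 array (0.0531) and, in untreated cells, without the second untreated sh-scr array (0.0524). Rosiglitazone in sh-scr cells lowered the first (−0.74, SE 0.18, adjusted p = 0.0191) and the second (−0.66, SE 0.17, adjusted p = 0.0252), while the third changed by −0.30 (adjusted p = 0.181). The fall of the first missed the threshold when any of the 4 sh-scr arrays was left out (adjusted p = 0.0587 to 0.098), and so did that of the second (0.0514 to 0.139), which also missed it on median-centred arrays (0.0569). In sh-PRDM16 cells the changes were −0.49, −0.44 and −0.34, none past the threshold on the deposited scale, and the first and second passed it on median-centred arrays (adjusted p = 0.0293 and 0.0309).

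**Figure D2:**
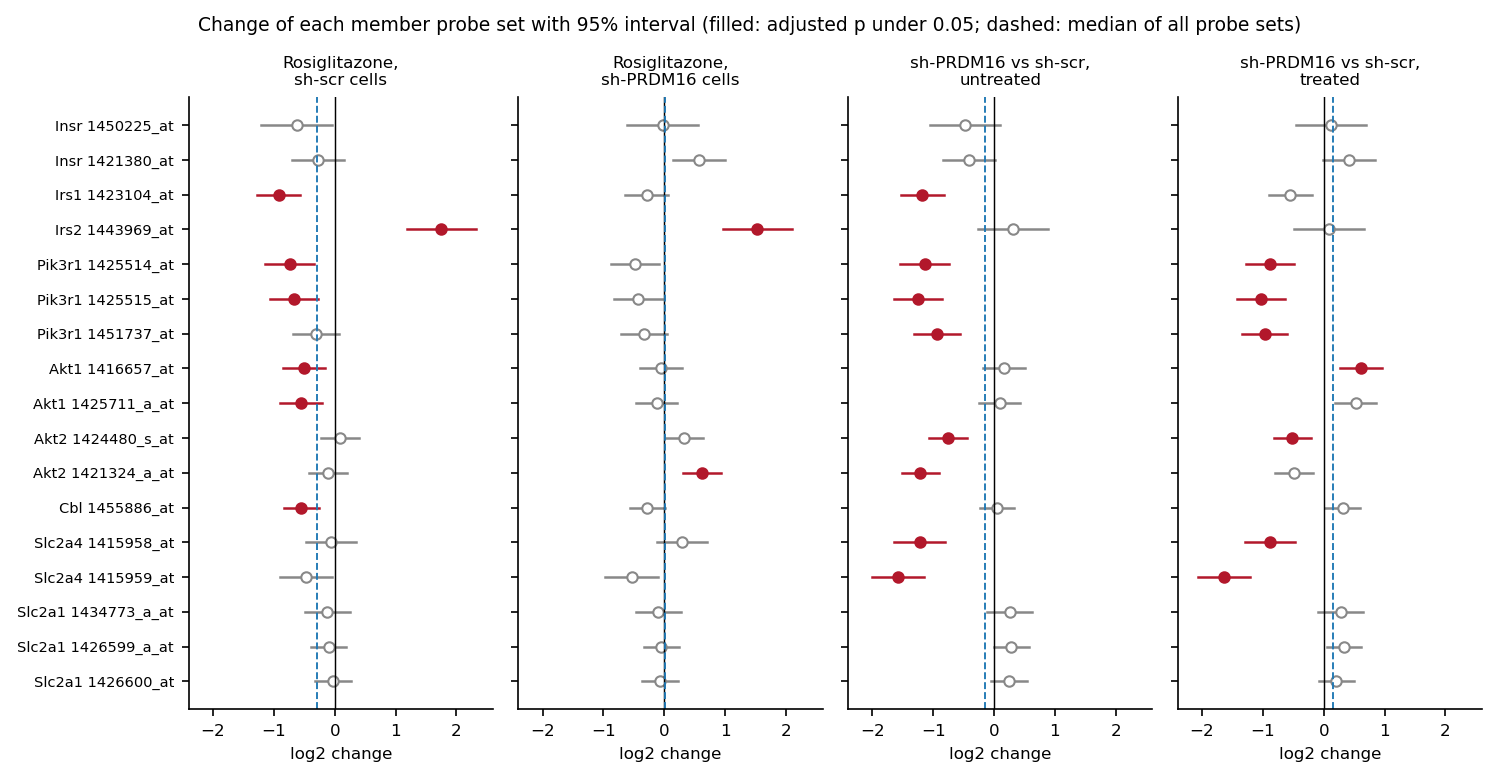
Log2 change with its 95% interval for each of the 17 member probe sets tested in 4 comparisons; filled points have an adjusted p under 0.05 and the dashed line is the median change of all probe sets tested. Irs2 stands to the right in both rosiglitazone panels, and all probe sets of Irs1, Pik3r1, Akt2 and Slc2a4 lie to the left of 0 in both hairpin panels.

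Akt1 and Akt2, which encode 2 of the AKT kinases, differed in direction. The Akt1 intensities (1416657_at) were 1027.1 and 952.2 in untreated sh-scr cells, 743 and 651.3 in treated sh-scr cells, 1190.4 and 1028.3 in untreated sh-PRDM16 cells and 982.8 and 1158.7 in treated sh-PRDM16 cells. Only the treated sh-scr arrays stood apart, below all others, and 1425711_a_at showed the same (277.6 and 231.1 in treated sh-scr cells against 348.3 to 437.2 elsewhere). Rosiglitazone lowered both probe sets in sh-scr cells on the deposited scale (−0.50, SE 0.15, adjusted p = 0.0393, and −0.56, SE 0.15, adjusted p = 0.0276), and neither passed on median-centred arrays (−0.19 and −0.25, adjusted p = 0.178 and 0.0851). The fall of the first was also lost without any of the 4 sh-scr arrays (adjusted p = 0.0653 to 0.207), and that of the second without any of them but the first treated array (0.108 to 0.17). In sh-PRDM16 cells the changes were −0.05 and −0.13. The hairpin differences in Akt1 without rosiglitazone were 0.16 and 0.09, neither a call on the deposited scale (adjusted p = 0.546 and 0.739). Centring the arrays brought the first past the threshold, at 0.35 (adjusted p = 0.045). It left the second short of it, at 0.29 (adjusted p = 0.0688). Between treated cells Akt1 was 1.54-fold higher with the sh-PRDM16 hairpin (0.61, SE 0.15, adjusted p = 0.0402; 0.52 for the other probe set, adjusted p = 0.0585). That call was lost without any of the 4 treated arrays or either untreated sh-scr array (adjusted p = 0.0606 to 0.215), and passed on median-centred arrays (0.48, adjusted p = 0.0168).

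Akt2 was lower with the sh-PRDM16 hairpin. The intensities of 1424480_s_at were 800.7 and 863.7 in untreated sh-scr cells, 932.6 and 840.7 in treated sh-scr cells, 513.3 and 461.1 in untreated sh-PRDM16 cells and 590.7 and 641.7 in treated sh-PRDM16 cells. Those of 1421324_a_at were 164.6 and 149.5, 152.3 and 137.5, 63.1 and 54.7, and 103 and 94.1. On both probe sets every sh-PRDM16 array lay below every sh-scr array, and untreated lay below treated within the sh-PRDM16 cells. Without rosiglitazone the hairpin went with 1.71-fold and 2.67-fold lower means (−0.75, SE 0.14, adjusted p = 0.00946, and −1.21, SE 0.14, adjusted p = 0.00124). The first of these calls was lost without the second untreated sh-scr array (adjusted p = 0.083) or the second untreated sh-PRDM16 array (0.0547), and the second held without any 1 array.

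With rosiglitazone the hairpin differences in Akt2 were smaller, at −0.51 (SE 0.14, adjusted p = 0.0473) and −0.49 (adjusted p = 0.0551), and centring the arrays brought both past the threshold (adjusted p = 0.00377 and 0.0158). The first was lost without any of the 4 treated arrays or either untreated sh-scr array (adjusted p = 0.0802 to 0.176). Rosiglitazone raised 1421324_a_at in sh-PRDM16 cells (0.61, SE 0.14, adjusted p = 0.0245), a call lost without the second untreated array (0.0891), the first treated array (0.128) or the second treated array (0.087). The brighter probe set gave 0.33 there (adjusted p = 0.176) and passed on median-centred arrays (0.32, adjusted p = 0.0229). In sh-scr cells the changes were 0.09 and −0.11, and the brighter probe set passed on median-centred arrays (0.39, adjusted p = 0.0118).

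Cbl, the ubiquitin ligase, was measured by 1 probe set in the tests (1455886_at). Its intensities were 326.2 and 321.8 in untreated sh-scr cells, 219.5 and 214.1 in treated sh-scr cells, 341.8 and 326.7 in untreated sh-PRDM16 cells and 264 and 281.5 in treated sh-PRDM16 cells. Both treated groups lay below both untreated groups without overlap, as a description only. Of all probe sets, 74.1% did not overlap between treated and untreated sh-scr cells, and 48.5% between treated and untreated sh-PRDM16 cells. Rosiglitazone lowered Cbl in sh-scr cells (−0.55, SE 0.12, adjusted p = 0.0167), and the change in sh-PRDM16 cells was −0.28 (adjusted p = 0.207). The fall was lost on median-centred arrays (−0.24, adjusted p = 0.083) and without any of the 4 sh-scr arrays (adjusted p = 0.0553 to 0.0978). The hairpin comparisons gave 0.04 and 0.31, neither past the threshold.

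Slc2a4, the gene of the insulin-responsive transporter GLUT4, was lower with the sh-PRDM16 hairpin both with and without rosiglitazone. The intensities of 1415958_at were 317.7 and 354 in untreated sh-scr cells, 274.3 and 378.3 in treated sh-scr cells, 139.2 and 129.7 in untreated sh-PRDM16 cells and 149.8 and 188.5 in treated sh-PRDM16 cells. Those of 1415959_at were 156.5 and 184.6, 112.8 and 123.9, 42.9 and 50.1, and 19.8 and 35.6. On both probe sets all 4 sh-PRDM16 arrays lay below all 4 sh-scr arrays. Without rosiglitazone the means were 2.50-fold and 3.67-fold lower (−1.22, SE 0.18, adjusted p = 0.00388, and −1.58, SE 0.19, adjusted p = 0.00159), and these calls held on median-centred arrays and without any 1 array.

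Under rosiglitazone the Slc2a4 means were 1.93-fold and 4.27-fold lower in sh-PRDM16 cells (−0.88, SE 0.18, adjusted p = 0.0221, and −1.64, SE 0.19, adjusted p = 0.0022). The first of these was lost without the second treated sh-scr array (adjusted p = 0.134), without the first treated sh-PRDM16 array (0.105) and with no filter on dim probe sets (0.0512), while the second held under each. Rosiglitazone itself gave no call for Slc2a4 at the settings used, although 1415959_at in sh-scr cells passed with a pseudocount of 64 (adjusted p = 0.034) and with only the 4 arrays compared (0.0481). The changes were −0.05 and −0.47 in sh-scr cells (adjusted p = 0.83 and 0.0867) and 0.29 and −0.54 in sh-PRDM16 cells (adjusted p = 0.378 and 0.116), so the probe sets, which correlated at 0.89 over the arrays, differed in sign within the sh-PRDM16 cells.

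Slc2a1, the gene of the basal transporter GLUT1, gave no call on the deposited scale by any of its 3 probe sets. The intensities of 1434773_a_at were 2774.8 and 2856.5 in untreated sh-scr cells, 2538.5 and 2644.7 in treated sh-scr cells, 3925 and 2881.7 in untreated sh-PRDM16 cells and 3025.2 and 3266.6 in treated sh-PRDM16 cells. Those of 1426599_a_at were 1981.3 and 1955.7, 1806 and 1862.1, 2482.2 and 2328.7, and 2235 and 2401.1. Those of 1426600_at were 1027.1 and 1048.7, 1034.4 and 1000.9, 1309.9 and 1169.7, and 1145.8 and 1212.8. Every sh-PRDM16 array lay above every sh-scr array on all 3 probe sets, as a description only, since 55.4% of all probe sets did not overlap between the hairpins without rosiglitazone and 62.1% with it. The hairpin differences were 0.26, 0.29 and 0.25 without rosiglitazone (adjusted p = 0.357, 0.178 and 0.25) and 0.28, 0.33 and 0.21 with it (adjusted p = 0.284, 0.116 and 0.302). On median-centred arrays the 3 untreated differences became 0.45, 0.48 and 0.44 and passed (adjusted p = 0.0375, 0.0157 and 0.0107). The changes with rosiglitazone lay between −0.12 and −0.03 in both kinds of cells, and 1426600_at changed sign in sh-scr cells on median-centred arrays (0.28, adjusted p = 0.0356).

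**Figure D3:**
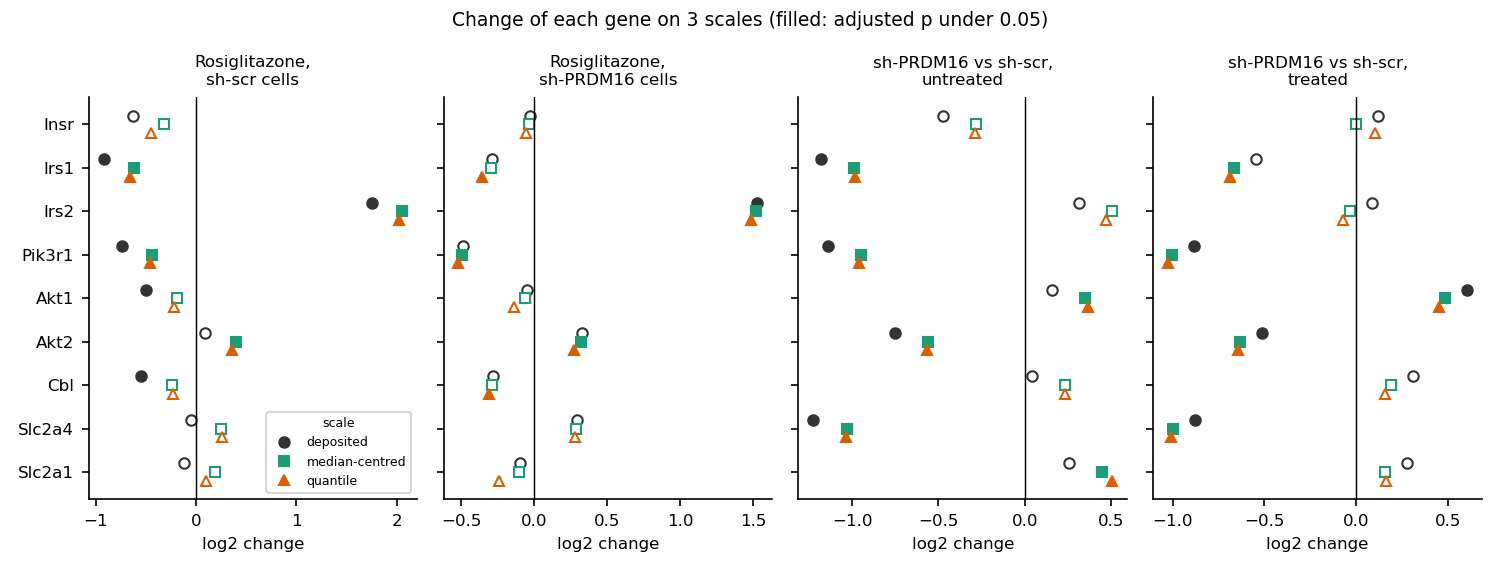
Log2 change of the representing probe set of each gene on the deposited scale, on median-centred arrays and on quantile-normalized arrays; filled points have an adjusted p under 0.05. Irs1 in sh-scr cells (−0.92 and −0.62 on the first and second scale) and Irs2 (1.75 and 2.06) keep their calls, while Akt1 (−0.50 and −0.19) and Akt2 (0.09 and 0.39) change theirs.

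Markers of several cell types differed between the groups beside Irs1, Pik3r1, Akt2 and Slc2a4. As a percentage of the untreated sh-scr mean, Irs1 stood at 52.3% in treated sh-scr cells, 43.5% in untreated sh-PRDM16 cells and 35.7% in treated sh-PRDM16 cells, and Pik3r1, in the same order, at 59.0, 44.7 and 31.4%. Slc2a4 stood at 97.2, 40.0 and 50.4% (1415958_at) and Akt2 at 107, 58.5 and 74.0% (1424480_s_at). The adipocyte marker sum stood at 102, 69.3 and 94.5%. With the hairpin 4 of its 6 markers fell without rosiglitazone and 0 with it, beside 10.9% and 3.42% of all probe sets. On median-centred arrays 4 and 3 fell, beside 9.29% and 9.62%. Most of that sum was Fabp4, Lpl and Adipoq, and dimmer markers differed more. Pnpla2 was at 1040.2 and 910.3 in untreated sh-PRDM16 cells against 2528.3 and 2770.6 in untreated sh-scr cells. In the same groups Cd36 was at 4941.8 and 4275.8 against 9664.5 and 10419.1, and Lipe at 558.1 and 443.1 against 1035.3 and 1169.7. Fabp4 was at 19492.6 and 16409.9 against 22736.2 and 21793.6. The macrophage marker sum stood at 61.4, 20.5 and 16.9%. Of its 6 tested markers 5 were lower in both hairpin comparisons, beside 10.9% of all probe sets without rosiglitazone and 3.42% with it. Lyz2 was at 234.2 and 235.8 in untreated sh-PRDM16 cells against 3147.8 and 3308.3 in untreated sh-scr cells. In the same groups Csf1r differed less, at 643.4 and 566.1 against 746.3 and 808.6. The skeletal muscle marker sum, nearly all Acta1, stood at 41.8, 164 and 131%, the smooth muscle sum at 70.1, 97.9 and 88.4%, the endothelial sum at 55.0, 82.9 and 51.3% and the preadipocyte sum at 57.2, 95.1 and 73.5%. With rosiglitazone in sh-scr cells, 5 of 6 smooth muscle, 4 of 5 preadipocyte, 3 of 6 macrophage and 2 of 6 endothelial markers tested fell. The share of falls over all probe sets was 25.4% there. On median-centred arrays 3, 3, 2 and 1 of these markers fell, beside 8.22% of all probe sets. The part of any of these cell types in the results was not tested.

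**Figure D4:**
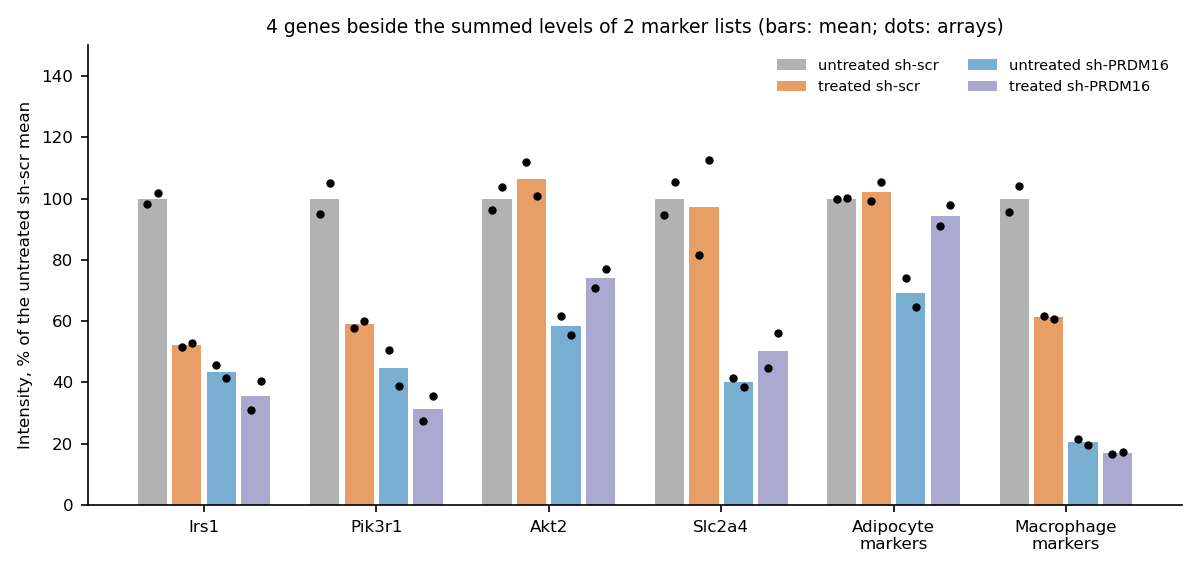
Intensity of Irs1, Pik3r1, Akt2 and Slc2a4 and the summed intensity of 2 marker lists, in percent of the untreated sh-scr mean; bars are group means and dots are arrays. In treated sh-PRDM16 cells the adipocyte sum, most of it Fabp4, Lpl and Adipoq, is at 94.5% and the macrophage sum at 16.9%, with Slc2a4 at 50.4% and Irs1 at 35.7%.

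Whether the hairpin altered the response to rosiglitazone was tested as the difference between the 2 responses, in which 0.157% of all probe sets passed, 19 higher (0.124%) and 5 lower (0.0327%). Of the 17 member probe sets 0 passed in limma, and 3 had an unadjusted p under 0.05. These were Insr 1421380_at (0.83, SE 0.27, adjusted p = 0.182), Irs1 (0.63, SE 0.22, adjusted p = 0.194) and Akt2 1421324_a_at (0.72, SE 0.19, adjusted p = 0.151). The median difference over all probe sets was 0.32, so a positive value is the rule on the deposited scale. Irs1 passed when the lower 50% of probe sets were left out (adjusted p = 0.0466) or with a trended prior (0.0405), and on median-centred and quantile-normalized arrays 0 members passed, as did 0% of all probe sets. For Irs2 the difference was −0.22, with a 95% interval of −1.03 to 0.58, and for Slc2a4 1415958_at it was 0.35, with an interval of −0.24 to 0.93. These intervals are wide, and a response of the same size in both kinds of cells was not shown.

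The balance between related genes was taken within each array as the difference of their log2(intensity + 16) values. A scale factor of the array cancels in it only in part, least for a dim gene such as Irs2, because of the added 16. The 3 pairs below were chosen after their values were seen and are described with no test. Relative to the untreated sh-scr mean, the log2 balance of Irs2 over Irs1 was 0.45 and −0.45 in untreated sh-scr cells, 2.69 and 2.66 in treated sh-scr cells, 1.60 and 1.39 in untreated sh-PRDM16 cells and 3.50 and 3.12 in treated sh-PRDM16 cells. The 4 groups did not overlap, with the balance toward Irs2 lowest in untreated sh-scr cells and highest in treated sh-PRDM16 cells. That of Akt2 over Akt1 was −0.11 and 0.11, 0.57 and 0.61, −0.94 and −0.88, and −0.47 and −0.59, so it was higher with rosiglitazone and lower with the hairpin. That of Slc2a4 over Slc2a1 was −0.05 and 0.05, −0.13 and 0.26, −1.66 and −1.30, and −1.19 and −0.99, apart by hairpin with the sh-scr groups overlapping.

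Across the 8 arrays the members fell into like and opposite patterns, given here as Pearson r on median-centred log2 values with no test, since the arrays share their groups. Irs1 and Pik3r1 had r = 0.97 and Akt2 and Slc2a4 had r = 0.91. Akt1 ran opposite to Slc2a4 (−0.95) and Akt2 (−0.94), Cbl opposite to Akt2 (−0.90) and Slc2a1 opposite to Irs1 (−0.82). On the deposited scale these 4 values were weaker, at −0.65, −0.66, −0.54 and −0.32, while the first and second pair had 0.98 and 0.93. Among 9459 genes, those nearest to each member on the deposited scale were Msrb1 and Rmnd5a for Irs1 (both r = 0.99), Elovl4 and Chrna2 for Irs2 (both 0.98) and Cpq (0.997) and Mfsd1 (0.995) for Pik3r1. For Akt1 they were Colgalt1 and Phgdh (both 0.99), for Akt2 Tmem242 (0.995) and AW112010 (0.993), and for Cbl Lima1 (0.998) and Ift74 (0.995). For Slc2a4 they were Hint3 and Lyplal1 (both 0.99), for Slc2a1 Mier2 (0.99) and Spry2 (0.98), and for Insr Anxa1 and Rab24 (both 0.98). The likeness to Insr followed the array scale, since its r was 0.38 with Anxa1 and 0.56 with Rab24 once the arrays were centred. That of Mier2 with Slc2a1 was 0.89 after centring. Chrna2 was near the floor, at 2.2 to 8.5 on the untreated arrays and 41.3 to 54.7 on the treated arrays, so its likeness to Irs2 rests on dim signal.

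The rest of the pathway was described through 6 lists with 89 genes, of which 73 were measured and 66 tested. In sh-scr cells 1 of the 66 rose with rosiglitazone and 19 fell, where 4% of all probe sets rose and 25.4% fell. On median-centred arrays 8 rose and 8 fell, where 12.6% of all probe sets rose and 8.22% fell. Their median change was −0.28, beside −0.30 for all probe sets. In sh-PRDM16 cells 4 rose and 1 fell, beside 7.5% and 2.26% of all probe sets (7 and 6 on median-centred arrays, beside 12.3% and 7.25%), and their median was −0.01 beside 0.00. With the hairpin 0 rose and 5 fell without the agent, beside 1.25% and 10.9% of all (3 and 6 on median-centred arrays, beside 7.05% and 9.29%). With the agent 1 rose and 1 fell, beside 6.93% and 3.42% (5 and 8, beside 9.75% and 9.62%). The list medians in these comparisons were −0.20 beside −0.16 and 0.07 beside 0.15. In the difference between the responses 0 of 66 passed in limma. 

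Of 12 tested adaptors of the receptor, 1 rose with rosiglitazone in sh-scr cells and 6 fell, beside 4% and 25.4% of all probe sets. On median-centred arrays 1 rose and 3 fell, beside 12.6% and 8.22%. Grb14, an adaptor that binds the activated insulin receptor and inhibits its kinase, fell with rosiglitazone in both kinds of cells, and both falls held without any 1 array. Its mean intensity was 1656 ± 121 (SD, n = 2) in untreated sh-scr cells, 644 ± 57.4 in treated sh-scr cells, 894 ± 139 in untreated sh-PRDM16 cells and 392 ± 20.0 in treated sh-PRDM16 cells. The changes were −1.34 (SE 0.15, adjusted p = 0.0015) and −1.15 (SE 0.15, adjusted p = 0.00218). Grb14 was also lower with the hairpin without the agent (−0.88, adjusted p = 0.00841; lost without the second untreated sh-scr or the second untreated sh-PRDM16 array, 0.0521 and 0.0678) and with it (−0.69, adjusted p = 0.0289; lost without any of the 4 treated arrays, up to 0.114). Sh2b2, an adaptor also called APS that links the receptor to CBL, rose with rosiglitazone in sh-scr cells (0.78, adjusted p = 0.0183) and in sh-PRDM16 cells (0.94, adjusted p = 0.0136), the first lost without either untreated sh-scr array or the first treated one (up to 0.0862) and the second without the second untreated or second treated sh-PRDM16 array (up to 0.0933). Igf1r, the receptor for insulin-like growth factor, fell in sh-scr cells (−0.76, adjusted p = 0.0128), and Irs3, a docking protein of rodents, was lower with the hairpin in untreated cells (−0.78, adjusted p = 0.0414) at group means between 18.4 and 43.5. That call of Irs3 was lost on median-centred arrays (adjusted p = 0.181) and kept in 3 of the 8 fits that left out an array.

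Of 16 tested genes of the PI3K and AKT list, 2 fell with rosiglitazone in sh-scr cells, beside 25.4% of all probe sets. They were Pik3r2 (−0.74, adjusted p = 0.01), which encodes p85β, and Foxo3 (−0.53, adjusted p = 0.0396), a transcription factor that AKT inhibits. On median-centred arrays 2 of the 16 rose and 1 fell, beside 12.6% and 8.22% of all probe sets. Mtor, the kinase downstream of AKT, rose in sh-PRDM16 cells (0.67, adjusted p = 0.0207). In sh-scr cells its change was 0.39 (adjusted p = 0.0688), and on median-centred arrays it rose in both, by 0.70 in sh-scr cells (adjusted p = 0.00213) and 0.67 in sh-PRDM16 cells (adjusted p = 0.00221). Foxo1 was lower with the hairpin in untreated cells (−0.80, adjusted p = 0.017). Of 11 negative regulators, 4 fell with rosiglitazone in sh-scr cells, beside 25.4% of all probe sets, and 2 fell on median-centred arrays, beside 8.22%. Among the 4 were Ptpn1, the phosphatase that dephosphorylates the insulin receptor (−0.70, adjusted p = 0.00994), and Socs3, an inhibitor of receptor and IRS signalling (−0.91, adjusted p = 0.0209). Socs3 was higher with the hairpin in treated cells (1.24, SE 0.22, adjusted p = 0.0129), at means of 469 ± 14.2 and 1139 ± 166 (SD, n = 2), a call lost without the second treated sh-scr or the second treated sh-PRDM16 array (adjusted p up to 0.0725). Inpp5d, a lipid phosphatase chiefly of blood cells, was lower with the hairpin in untreated cells (−1.14, adjusted p = 0.0204) at intensities near the floor, beside the lower macrophage markers, a call lost on median-centred arrays (adjusted p = 0.0832) and without either untreated sh-scr array or the first untreated sh-PRDM16 array (up to 0.0675). The calls of Pik3r2 and Ptpn1 were lost without the second untreated or second treated sh-scr array (adjusted p up to 0.0734 and 0.0696), and that of Foxo3 without any sh-scr array (up to 0.255). That of Mtor was lost without the second untreated or either treated sh-PRDM16 array (up to 0.119), and that of Foxo1 without the first untreated sh-scr or second untreated sh-PRDM16 array (up to 0.0976).

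Among the genes that move GLUT4 vesicles, 5 of 14 fell with rosiglitazone in sh-scr cells, beside 25.4% of all probe sets, with Stxbp3 (−0.63), Myo1c (−0.60) and Snap23 (−0.58) the furthest. On median-centred arrays 2 of the 14 fell, beside 8.22% of all probe sets, and 1 rose, beside 12.6%. Sort1, the sorting receptor sortilin that takes part in forming GLUT4 vesicles, rose with rosiglitazone in sh-PRDM16 cells (1.25, SE 0.15, adjusted p = 0.00116), and this held without any 1 array. Its means were 859 ± 146 (SD, n = 2) in untreated sh-scr cells, 986 ± 17.5 in treated sh-scr cells, 446 ± 19.0 in untreated sh-PRDM16 cells and 1080 ± 10.4 in treated sh-PRDM16 cells. Without the agent it was lower with the hairpin (−0.91, SE 0.15, adjusted p = 0.00604; lost without the second untreated sh-scr array, 0.0603). The rise of Sort1 and its lower level share the untreated sh-PRDM16 arrays, so they are not separate evidence. Its difference between the responses was 1.04 (adjusted p = 0.0954) and did not pass. In the CBL and CAP branch 1 of 7 fell in sh-scr cells, beside 25.4% of all probe sets. It was Rhoq, the GTPase TC10 (−0.43, adjusted p = 0.0491), and 0 fell on median-centred arrays, beside 8.22%. Of 6 other transporters and hexokinases, 1 fell in sh-scr cells on the deposited scale, beside 25.4% of all probe sets. It was Slc2a10 (−0.54, adjusted p = 0.0451), a call lost on median-centred arrays (−0.24, adjusted p = 0.316) and without any 1 of the 8 arrays. On median-centred arrays 4 of these 6 genes rose there and 0 fell, beside 12.6% and 8.22% of all probe sets. Txnip, which promotes removal of transporters from the cell surface, rose in sh-PRDM16 cells (0.55, adjusted p = 0.0424), a call kept in 1 of 8 fits that left out an array (adjusted p up to 0.18). In sh-scr cells its change was 0.25 (adjusted p = 0.192) on the deposited scale and 0.56 (adjusted p = 0.00496) on median-centred arrays. Apart from Grb14, each of the 20 calls over these lists in sh-scr cells was lost without at least 1 array.

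**Figure D5:**
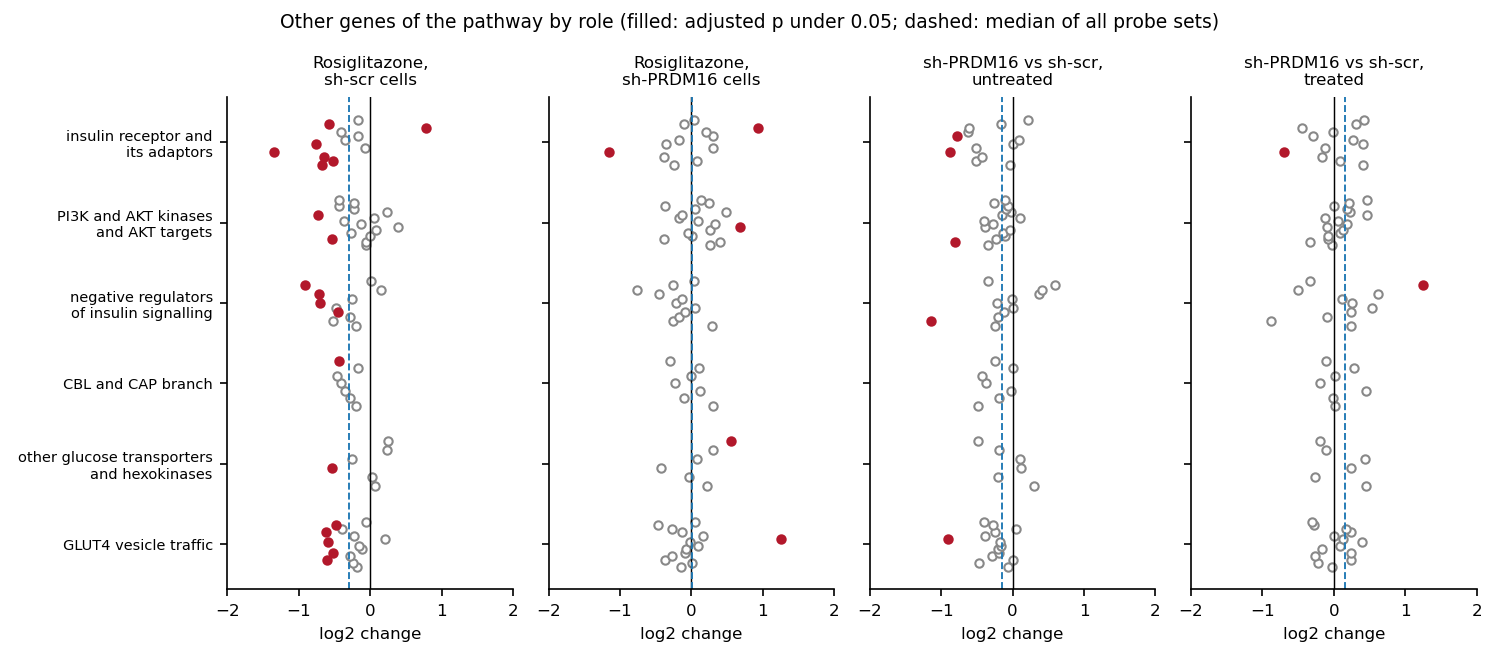
Log2 change of each tested gene of the 6 lists in 4 comparisons; filled points have an adjusted p under 0.05 and the dashed line is the median change of all probe sets tested. Most points lie around the dashed line, with Grb14 far to the left in both rosiglitazone panels (−1.34 and −1.15) and Sort1 to the right in sh-PRDM16 cells (1.25).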

How the data were processed

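Total RNA from 8 samples of differentiated inguinal fat cells was copied from an oligo-dT primer, transcribed into biotinylated cRNA and hybridized to Affymetrix mouse 430A_2 arrays, per the labels' protocols. The authors deposited linear intensity values of 22690 probe sets, from 0.1 to 22736; how they were summarized or scaled is not given in the sources used here, and no detection calls were used. Probe sets were named from the platform annotation (20380 with 1 gene, 691 with several, 1555 not listed, 64 controls), and 12369 of 12393 genes matched RefSeq by Entrez identifier. The number of arrays limits the precision: the median SE of a change was 0.16.

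The 25% of 1-gene probe sets with the lowest mean were left out. With limma 3.58.1 in R 4.3.3, lmFit and eBayes were run on log2(intensity + 16) of all 8 arrays with a mean per group (4 residual degrees of freedom, prior 4.69), with two-sided tests in 5 contrasts, Benjamini-Hochberg adjustment over 15285 probe sets and a threshold of 0.05. The code was tested on simulated data. The brightest probe set on average stood for its gene. Named are all member probe sets, up to 3 genes for each pathway list and contrast with the largest change past the threshold and no overlap of groups, and the 2 genes nearest to each member; Pearson r was used for likeness. The members and lists were chosen with earlier results of these data known. Alternatives were median-centred and quantile-normalized arrays, other filters and pseudocounts, the mean of a gene's probe sets, a trended prior, the replicate number as a block, only the 4 arrays compared, and each array left out in turn.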

Additional observations from a re-analysis of the deposited data

How the results depend on the processing

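Of 1493 single probe-set comparisons under the alternatives, 1379 kept their direction and side of the threshold, 66 lost and 47 gained a call, and 1 changed sign with a call (Slc2a1 1426600_at in sh-scr cells, 0.28 on median-centred arrays); the cause was not tested. Of the 9 genes, 5 were called with rosiglitazone in sh-scr cells, and 2 to 5 without 1 array. In sh-PRDM16 cells the count was 1, but 3 on median-centred arrays, 5 on quantile-normalized arrays, 2 each with a pseudocount of 64, the mean of a gene's probe sets or a trended prior, and 0 to 1 without 1 array. With the hairpin 4 were called without rosiglitazone (3 to 4 without 1 array). With it 4 were called, but 1 with no filter, 2 each with a pseudocount of 1, the replicate block or only the 4 arrays compared, and 0 to 4 without 1 array. In the difference between responses the count was 0, but 1 with a filter on the lower 50% and 1 with a trended prior, and 0 without 1 array. Samples of the same number deviated with correlations of −0.01 to 0.04, which shows no strong shared deviation but cannot exclude a shared culture or animal. With the replicate block the counts of genes were 4, 1, 4, 2 and 0 in the 5 contrasts. With no array left out, the alternatives gave 4 to 6 genes with rosiglitazone in sh-scr cells. They gave 4 to 6 with the hairpin without rosiglitazone and 1 to 5 with it. Median-centred and quantile-normalized arrays each gave 2 higher and 4 lower genes without rosiglitazone, and 1 higher and 4 lower with it. Over all probe sets the 5 counts of calls were 4491, 1493, 1863, 1582 and 24, with ranges of 907 to 5346, 640 to 1323, 628 to 2055, 444 to 1987 and 0 to 14 without 1 array, and 2953 to 6315, 1073 to 3308, 1413 to 3086, 791 to 3452 and 0 to 1252 under the others.

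Most of the single probe-set comparisons counted above had no call to lose, so the share that stayed the same says little about how firm the calls are. Leaving out an array outside a comparison also left its change as it was. Where an array was left out, the lone array of its group was assumed to vary like the other groups. Signal near the floor limits Insr and the second Cbl probe set.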
